A study of Mus musculus with 4 samples.

Results

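The CC and XC chemokine ligands described here are 8 mouse genes, Ccl1, Ccl3, Ccl4, Ccl5, Ccl17, Ccl20, Ccl22 and Xcl1, taken by name from the 24343 genes of the count table. They were measured by RNA-seq in group 3 innate lymphoid cells (ILC3s), lymphocytes without antigen receptors that live mainly at mucosal surfaces. The TL1A group (n = 2 libraries) was stimulated with TL1A, a cytokine of the TNF superfamily that binds the receptor DR3, and the medium group (n = 2 libraries) was kept without it. All libraries came from IL23R-GFP/WT mice, which carry a GFP reporter at the IL-23 receptor gene, and the cells were sorted as Lin-, CD127+ and GFP+. The labels do not state the tissue, the age and number of animals, the TL1A dose or the time of stimulation. They also do not say whether the 2 libraries of a group came from separate animals or cultures, so p-values measure only how these libraries vary, and that variation may be technical. The TL1A libraries held 11849977 and 12605164 assigned reads and the medium libraries 11495636 and 12222552.

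Chemokines are small secreted proteins that bind G protein-coupled receptors and draw cells along a gradient. CC chemokines carry a pair of adjacent cysteines near the N terminus, whereas XCL1 lacks one of that pair. CCL3, CCL4 and CCL5 attract T cells, NK cells and monocytes, and CCL3 and CCL5 bind CCR1; CCL17 and CCL22 share the receptor CCR4, found on type 2 helper and regulatory T cells; CCL1 binds CCR8; CCL20 binds CCR6; and XCL1 binds XCR1, known from the dendritic cells that present antigen to CD8 T cells.

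Ccl5, Ccl22, Ccl17, Xcl1 and Ccl1 rose with TL1A, by 7.07-fold for Ccl22 up to 199.7-fold for Xcl1, whereas Ccl3 and Ccl4 had almost no reads with TL1A and Ccl20 could not be measured. Of the 8 genes, 5 passed the filter on low counts and were tested, and each of these 5 was called higher (edgeR quasi-likelihood test, Benjamini-Hochberg adjusted p under 0.05 over 9852 tested genes). Over all tested genes, 42.3% were called in either direction and 20.6% were called higher. In each of the 5 genes both TL1A libraries lay above both medium libraries, as they did in 34.7% of tested genes. Ccl1 and Xcl1 passed the filter through the TL1A libraries alone and so had to differ, while Ccl5, Ccl17 and Ccl22 had reads well above it in every library. The median log2 fold change was 4.61 for the 5 tested genes and -0.03 for all tested genes. Each of these 5 changes exceeded 4-fold; of all tested genes, 4.13% were called higher by at least 4-fold. By size of increase, Xcl1 ranked 24, Ccl1 49, Ccl17 99, Ccl5 126 and Ccl22 239 among the tested genes.

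**Figure D1:**
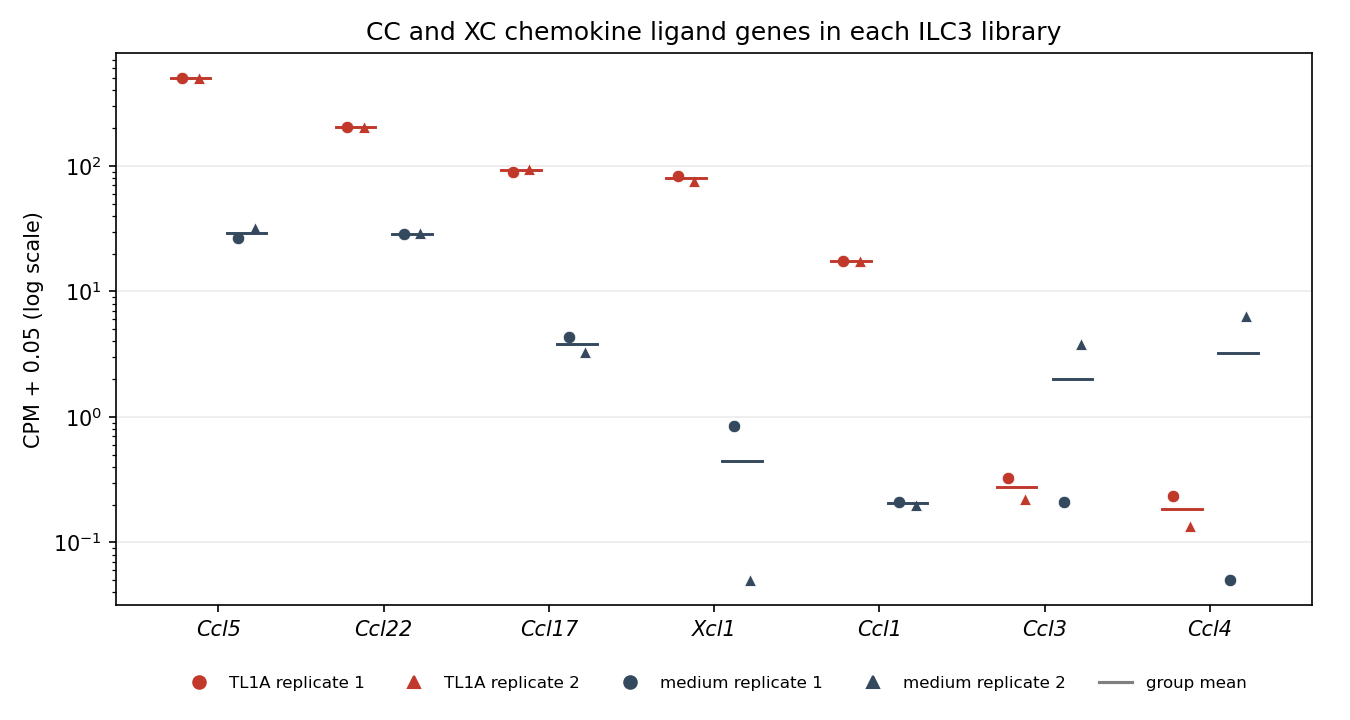
CPM (counts scaled to library size, plus 0.05, log scale) of 7 of the 8 chemokine ligand genes in each library, with TL1A libraries in red left of medium libraries in dark blue and a line at each group mean; Ccl20, with 0 reads in each library, is left out. For Ccl5, Ccl22, Ccl17, Xcl1 and Ccl1 both TL1A libraries lie above both medium libraries, whereas Ccl3 and Ccl4 are above 1 CPM in medium replicate 2 alone.

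The promoters of 4 of the genes that rose are shown, since no promoter sequence of Ccl5 was available. Each line gives the 250 bases before the transcription start, 5′ to 3′ on the gene's strand, from RefSeq (GRCm38.p6), and capitals mark matches to the NF-κB consensus or to the AP-1 motif TGANTCA on either strand. The Ccl1 promoter lies at chr11:82179813-82180062 on the minus strand, that of Ccl17 at chr8:94810203-94810452 on the plus strand, that of Ccl22 at chr8:94745434-94745683 on the plus strand and that of Xcl1 at chr1:164935523-164935772 on the minus strand.
Ccl1: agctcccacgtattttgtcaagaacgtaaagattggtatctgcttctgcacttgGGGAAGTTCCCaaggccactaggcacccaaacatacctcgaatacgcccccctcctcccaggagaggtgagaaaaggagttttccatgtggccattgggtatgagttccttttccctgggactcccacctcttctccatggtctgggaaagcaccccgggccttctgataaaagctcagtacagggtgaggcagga
Ccl17: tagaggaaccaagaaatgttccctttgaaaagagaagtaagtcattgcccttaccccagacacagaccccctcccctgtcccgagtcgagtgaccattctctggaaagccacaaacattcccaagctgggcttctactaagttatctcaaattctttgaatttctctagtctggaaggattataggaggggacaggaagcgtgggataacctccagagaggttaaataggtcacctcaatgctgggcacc
Ccl22: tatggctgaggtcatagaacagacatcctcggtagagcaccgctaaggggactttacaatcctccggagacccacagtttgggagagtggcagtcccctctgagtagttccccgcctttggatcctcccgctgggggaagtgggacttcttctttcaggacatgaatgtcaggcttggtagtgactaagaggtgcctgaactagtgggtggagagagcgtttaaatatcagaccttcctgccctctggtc
Xcl1: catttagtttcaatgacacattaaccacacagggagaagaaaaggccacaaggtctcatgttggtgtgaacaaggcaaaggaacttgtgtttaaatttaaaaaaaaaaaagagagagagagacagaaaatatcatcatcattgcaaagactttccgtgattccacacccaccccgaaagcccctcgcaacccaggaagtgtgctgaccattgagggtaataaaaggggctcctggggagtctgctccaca
The capitals in Ccl1 are 2 overlapping matches to the NF-κB consensus, 196 to 186 bases before the start. No letters matching either motif stand in the windows of Ccl17, Ccl22 and Xcl1. Of the 6 members with a promoter in the table (Ccl1, Ccl3, Ccl17, Ccl20, Ccl22 and Xcl1), 2 held an NF-κB match, Ccl1 and Ccl20, and 0 held an AP-1 match. Among all 32851 promoter windows of the same length, 7.25% held an NF-κB match and 6.75% an AP-1 match. A match describes letters only, and no binding was measured here.

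Ccl5, which encodes the T cell and monocyte attractant RANTES, was the most abundant of the genes with TL1A, in reads and per transcript length. It had 5378 and 5775 reads in the TL1A libraries, against 333 and 424 reads in the medium libraries. The groups did not overlap, and both libraries with TL1A were far above either one in medium. In CPM (counts scaled to library size), Ccl5 averaged 499 ± 1.62 with TL1A and 29.1 ± 3.71 in medium (SD, n = 2 each), a 17.1-fold rise (log2 fold change 4.10, SE 0.11, adjusted p = 3.09e-07).

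Ccl22 and Ccl17, the ligands of CCR4, rose by different amounts. Ccl22 had 2188 and 2371 reads in the TL1A libraries, against 359 and 388 reads in the medium libraries. Its libraries lay close together within each group, and the groups did not overlap. It averaged 204 ± 0.65 CPM with TL1A and 28.8 ± 0.33 CPM in medium, a 7.07-fold rise (log2 fold change 2.82, SE 0.09, adjusted p = 8.65e-07). Ccl17 had 958 and 1101 reads in the TL1A libraries, against 54 and 43 reads in the medium libraries. Its groups lay far apart, with medium at a low but countable level. It averaged 92.0 ± 4.12 CPM with TL1A and 3.76 ± 0.76 CPM in medium, a 24.5-fold rise (log2 fold change 4.61, SE 0.17, adjusted p = 1.59e-06).

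The balance between these CCR4 ligands shifted towards Ccl17. A library held 0.438 and 0.464 reads of Ccl17 per read of Ccl22 with TL1A, against 0.150 and 0.111 in medium. This ratio is taken within a library, so it needs no scaling between libraries, and the groups did not overlap. On the log2 scale with 0.5 reads added to both counts it averaged -1.15 ± 0.06 with TL1A and -2.94 ± 0.31 in medium (SD, n = 2 each). The shift of 1.79 exceeded the spread between the libraries of either group. With 2 libraries a group, the smallest p that an exact permutation test allows is 0.333.

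Xcl1, which encodes the ligand of XCR1, was well counted with TL1A and at a trace in medium. It had 893 and 877 reads in the TL1A libraries, against 10 and 0 reads in the medium libraries. Medium replicate 1 therefore held all medium reads of this gene, and the 0 reads of medium replicate 2 allow up to 3 counts, or 0.225 CPM on the same scale (counting error only). Xcl1 averaged 79.3 ± 5.26 CPM with TL1A and 0.398 ± 0.563 CPM in medium, and it rose by 7.64 on the log2 scale (SE 0.49, adjusted p = 1.96e-05). The size of the fold depends on the medium libraries: without medium replicate 2 the log2 fold change was 6.65 (adjusted p = 4.62e-07), and without medium replicate 1, where 0 reads remain in medium, Xcl1 was at least 352-fold higher with TL1A (pooled TL1A reads against that floor of 3 counts in that library).

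Ccl1, which encodes the CCR8 ligand, likewise had almost no reads in medium. There were 187 and 203 reads in the TL1A libraries, against 2 and 2 reads in the medium libraries. The TL1A libraries gave 17.4 and 17.5 CPM, so they were close to each other and far from medium. The log2 fold change was 6.73 (SE 0.35, adjusted p = 6.57e-06). From the pooled reads the fold was 113, with a 95% exact (Clopper-Pearson) counting interval of 43.8 to 417, so the size of the rise is known only roughly.

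**Figure D2:**
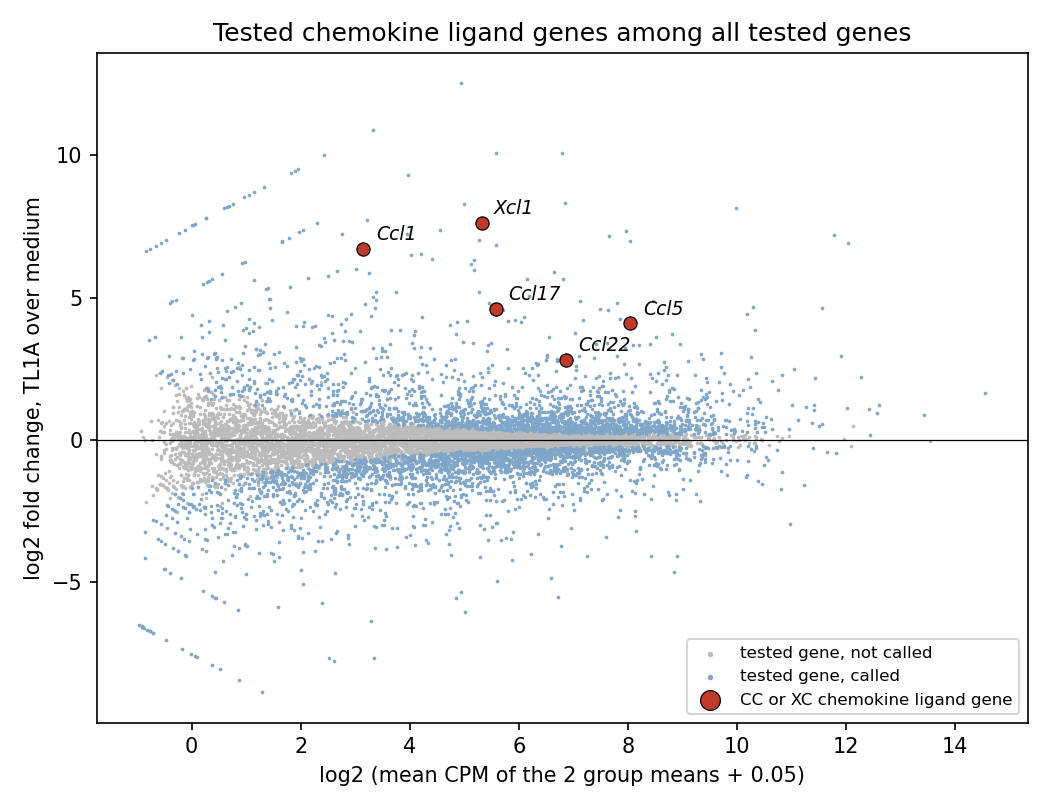
Log2 fold change of TL1A over medium (y axis) against log2 mean CPM (x axis, plus 0.05) for the 9852 tested genes, with called genes in blue, other genes in grey and the 5 tested chemokine ligand genes in red. The red points lie from 2.82 (Ccl22) to 7.64 (Xcl1) on the y axis, among the called genes well above the zero line.

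Ccl3 and Ccl4, which encode the inflammatory chemokines MIP-1α and MIP-1β and neighbour each other on chromosome 11, did not share the rise. Ccl3 had 3 and 2 reads in the TL1A libraries, against 2 and 50 reads in the medium libraries. Ccl4 had 2 and 1 reads in the TL1A libraries, against 0 and 85 reads in the medium libraries. Medium replicate 2 alone was high for both genes, and medium replicate 1 lay at the level of the TL1A libraries. In medium replicate 2 the exact Poisson interval (95%, counting error only) was 37.1 to 65.9 reads for Ccl3 and 67.9 to 105 for Ccl4. In medium replicate 1 it was 0.242 to 7.22 for Ccl3. The 0 reads of Ccl4 there allow up to 3 counts, which is the floor used here for 0 reads and not such an interval. Both genes failed the filter on low counts and were not tested. With no filter both were called lower with TL1A (log2 fold change -3.07 and adjusted p = 0.0186 for Ccl3; -4.47 and 0.00503 for Ccl4), and so they were without medium replicate 1 (adjusted p = 0.00282 and 0.000266), where medium replicate 2 is the lone medium library. Neither was called without TL1A replicate 1 (adjusted p = 0.151 for Ccl3 and 0.120 for Ccl4) or without TL1A replicate 2 (adjusted p = 0.198 and 0.145). Without medium replicate 2, no more than 3 reads of either gene were left in any library. These calls therefore rest on 1 library. Between that library and medium replicate 1, the summed CPM of NK cell and ILC1 markers was 9.66 and 13.6, and of macrophage and monocyte markers 102 and 88.8. T cell markers summed to 125 and 141 CPM, of which Lat made up 116 and 138. Cd3e, Cd3g and Cd28 were instead higher in medium replicate 2, with 16 and 0, 44 and 19, and 67 and 21 reads. Cd3d had 2 and 2 reads and Cd8b1 0 and 1. S100a8, a granulocyte marker, had 6 and 0 reads. The part of other cells in the Ccl3 and Ccl4 reads was not tested.

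Ccl20, which encodes the CCR6 ligand, was listed at 0 in every library. This value is not a measurement of the gene. Its reads were counted over 2 overlapping transcripts, and in GENCODE M21 models matched to these accessions 0 of 772 bases of one and 22 of 794 bases of the other lie outside the partner, so that nearly every read would be ambiguous and uncounted. The other 7 genes have 1 transcript row each, and no base of their transcripts is shared with another row in those models.

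RPKM values (the scaled CPM divided by GENCODE M21 transcript length in kilobases) put the genes on 1 scale. With TL1A, Ccl5 stood at 938 ± 3.05 RPKM (SD, n = 2). Ccl17 followed at 179 ± 8.01 and Xcl1 at 152 ± 10.1, a difference larger than the spread of either. Ccl22, whose transcript of 2216 bases is the longest of the 7, came at 92.0 ± 0.29 and Ccl1 at 33.9 ± 0.15. The order in medium was another: Ccl5 stood at 54.8 ± 6.96, Ccl22 at 13.0 ± 0.15 and Ccl17 at 7.32 ± 1.48. Per length, then, Ccl17 was above Ccl22 with TL1A and below it in medium. Ccl4 (4.82 ± 6.82), Ccl3 (2.55 ± 3.31) and Xcl1 (0.761 ± 1.08) followed in medium and did not differ beyond their spread, and Ccl1 was at 0.301 ± 0.01. Among 8471 tested genes with 1 row and a known length, Ccl5 ranked 49 by RPKM with TL1A, against 1546 in medium, and Xcl1 ranked 620 with TL1A, against 7621 in medium.

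As a group, the 8 genes held 9609 and 10330 reads in the TL1A libraries, against 760 and 992 reads in the medium libraries. Their make-up changed as well as their sum. Ccl5 took 56.0% and 55.9% of these reads with TL1A, against 43.8% and 42.7% in medium. Ccl22 took 22.8% and 23.0% with TL1A, against 47.2% and 39.1% in medium. Xcl1 took 9.29% and 8.49% with TL1A, against 1.32% and 0% in medium.

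The neighbours of these genes on the chromosome did not all behave alike. On chromosome 8, the fractalkine gene Cx3cl1, whose product is a membrane-bound chemokine, is the single protein-coding gene between Ccl22 and Ccl17 in the RefSeq table, and all 3 genes of this block rose. Cx3cl1 had 24509 and 29755 reads in the TL1A libraries, against 2175 and 2102 reads in the medium libraries (log2 fold change 3.87, SE 0.09, adjusted p = 2.59e-07). On chromosome 11 the block from Ccl2 to Ccl1 held 1 gene that rose, Ccl1 itself. Ccl2, which encodes the monocyte attractant MCP-1, had 17 and 11 reads with TL1A, against 15 and 21 reads in medium (adjusted p = 0.846), Ccl7 had 9 and 7 reads with TL1A, against 0 and 16 in medium, and Ccl11, Ccl12 and Ccl8 had 0 reads in each library.

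In the block from Ccl5 to Ccl4, also on chromosome 11, Ccl5 alone rose. Ccl9 had 28 and 16 reads with TL1A, against 3 and 28 reads in medium, and Ccl6 had 68 and 82 reads with TL1A, against 60 and 100 reads in medium. Neither passed the test (adjusted p = 0.498 and 0.760), although Ccl9 was called higher without medium replicate 2 (log2 fold change 3.02, adjusted p = 0.0412). Over all 17 other CC, C and CX3C ligand genes in the table, 10 had 0 reads in every library, 2 fell under the filter and 5 were tested. Of these 5, Cx3cl1 rose and 4 did not pass. This share of 20% called higher is near the 20.6% among all tested genes. The median log2 fold change of the 5 was 0.12. Ccl25, whose product attracts lymphocytes to the gut, did not pass at -0.31 (SE 0.28, adjusted p = 0.419).

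**Figure D3:**
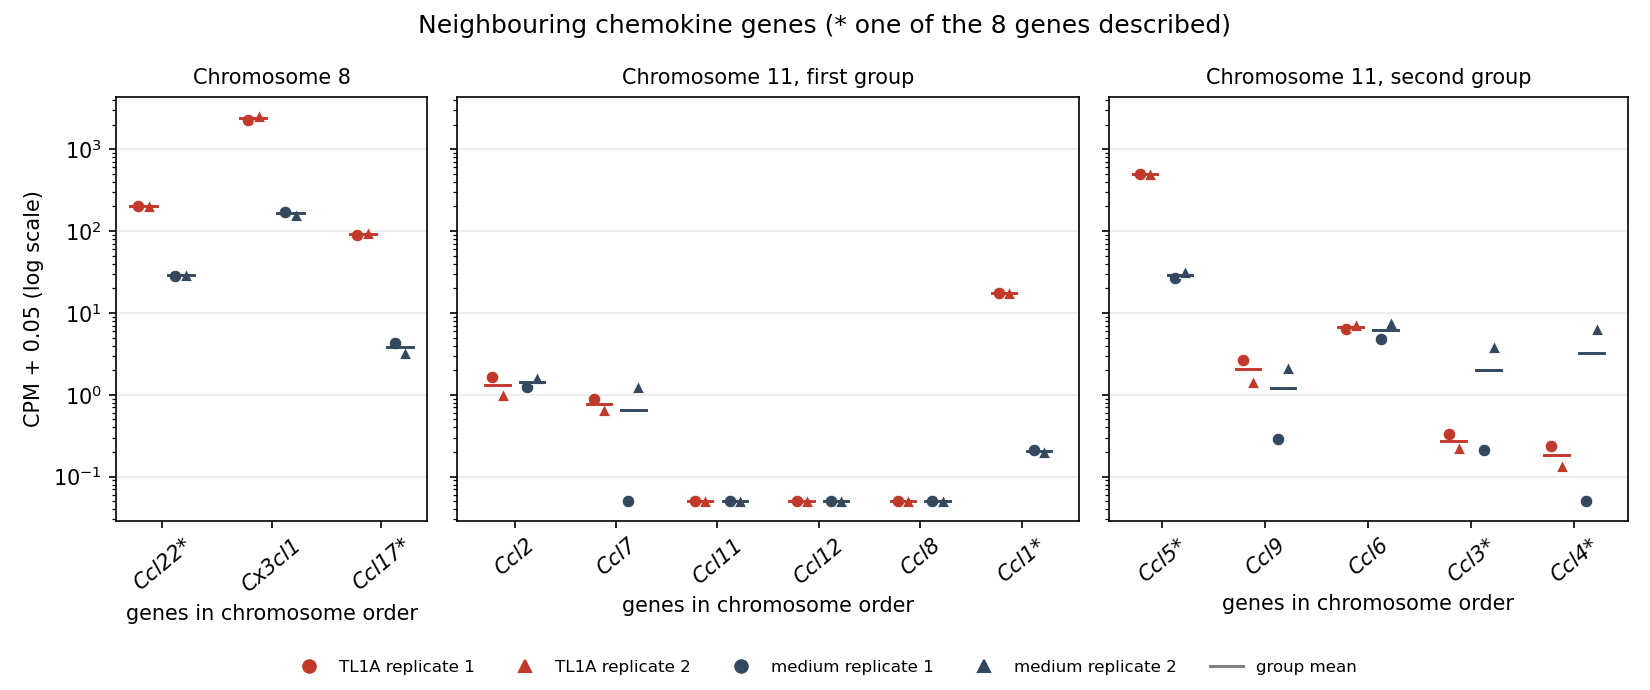
CPM (plus 0.05, log scale) of chemokine genes in chromosome order in 3 blocks, with TL1A libraries in red left of medium libraries in dark blue and a line at each group mean; asterisks mark the chemokine ligand genes described. All 3 genes of the chromosome 8 block are higher with TL1A, whereas in the chromosome 11 blocks Ccl1 and Ccl5 rose, Ccl2, Ccl9 and Ccl6 did not pass the test and the other genes were not tested.

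Of the 9 receptor genes listed for these ligands, 7 were tested, 1 rose, 1 fell and 5 did not pass. Among all tested genes, 20.6% were called higher and 21.7% lower. The median log2 fold change of the 7 tested receptor genes was -0.18. Ccr1, which encodes a receptor of CCL3 and CCL5, had 766 and 941 reads in the TL1A libraries, against 92 and 132 reads in the medium libraries. Its groups did not overlap, and it rose by 3.14 on the log2 scale (SE 0.18, adjusted p = 1.16e-05). Xcr1, which encodes the receptor of XCL1, moved against its ligand. It had 347 and 420 reads in the TL1A libraries, against 2647 and 1557 reads in the medium libraries. The medium libraries differed from each other, but both lay above the TL1A libraries, and Xcr1 fell by 2.26 on the log2 scale (SE 0.26, adjusted p = 0.000424).

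The receptors of the CCR4, CCR8 and CCR6 ligands gave no call. Ccr4 had 20 and 14 reads with TL1A, against 29 and 56 reads in medium, and its log2 fold change of -1.09 (SE 0.46) did not pass (adjusted p = 0.0980). Ccr8 had 99 and 72 reads with TL1A, against 76 and 69 reads in medium, and its log2 fold change of 0.46 (SE 0.28) did not pass (adjusted p = 0.236). Ccr6 had 1645 and 1418 reads with TL1A, against 1839 and 2208 reads in medium, summed over 7 transcript rows that leave out shared parts (adjusted p = 0.286). Ccr3 had 25 and 45 reads with TL1A, against 25 and 82 reads in medium (adjusted p = 0.600). Ackr1 and Ackr2, which encode scavenging receptors of CC chemokines, were listed at 0 reads. For Ackr2, with 2 transcript rows, reads shared by the rows would be uncounted.

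**Figure D4:**
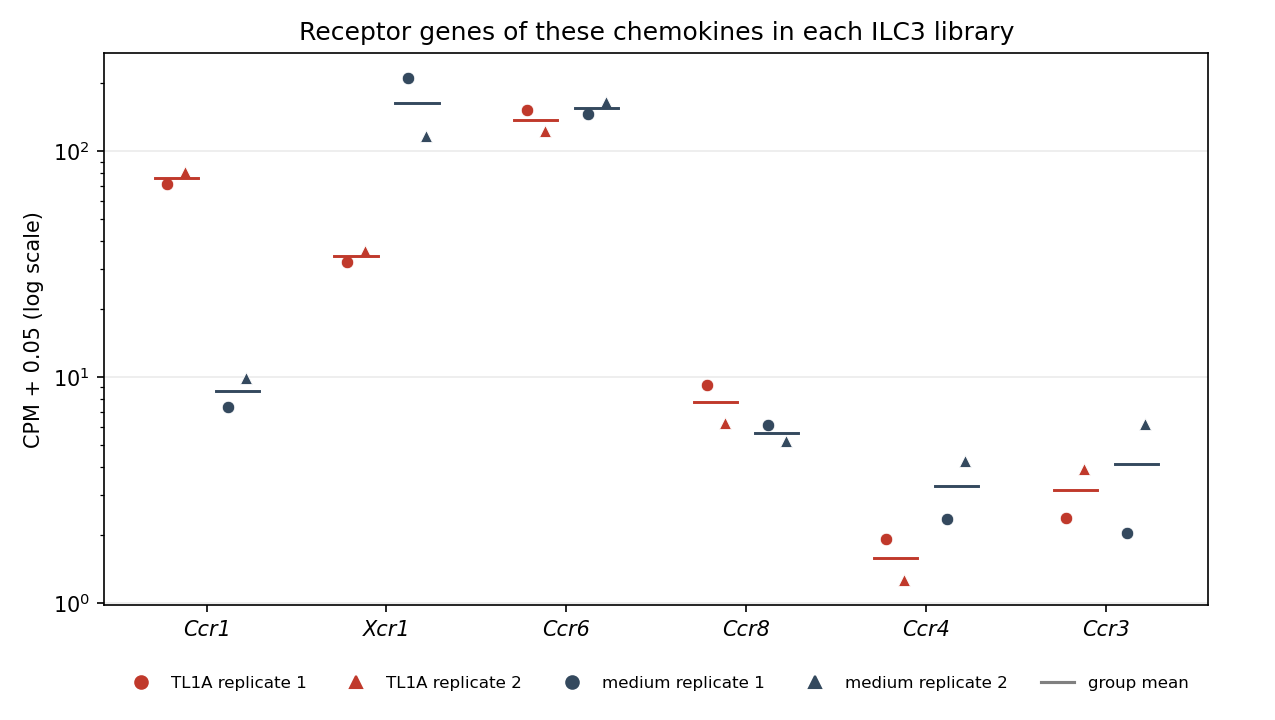
CPM (plus 0.05, log scale) of 6 tested receptor genes in each library, with TL1A libraries in red left of medium libraries in dark blue and a line at each group mean. Ccr1 is higher and Xcr1 lower in both TL1A libraries than in both medium libraries.

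NF-κB signalling, into which TNF receptors feed and which is known to drive several chemokine genes, was described by a list of 21 genes. Of its 15 tested members, 12 rose and 3 did not pass. Their median log2 fold change was 1.35, beside 20.6% called higher and a median of -0.03 among all tested genes. The untested genes, Relb, Nfkbiz, Traf2, Tnip1, Chuk and Ikbkg, each have several transcript rows, so reads shared by the rows would be uncounted. Among the 12, Tnfaip3 had 61 and 77 reads with TL1A, against 0 and 1 in medium. It passed the filter through the TL1A libraries alone and so had to differ. The adaptor gene Traf1 rose by 2.50 on the log2 scale (SE 0.09, adjusted p = 1.07e-06), the inhibitor gene Nfkbie by 2.86 (SE 0.10, adjusted p = 1.37e-06), the ubiquitin ligase gene Birc3 by 1.35 (SE 0.06, adjusted p = 4.69e-06) and the subunit gene Nfkb1 by 1.08 (SE 0.07, adjusted p = 2.58e-05). Rela, another subunit gene, had a log2 fold change of -0.10 (adjusted p = 0.315). A part of NF-κB signalling in the chemokine values was not tested.

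The genes outside the chemokine set whose profiles came nearest to the mean profile of the 5 tested members were Il1r2, Ccnd2 and Efcab3. Likeness was the Euclidean distance over the 4 libraries between centred log2(CPM + 0.5) values, at 0.18 for Il1r2, the decoy receptor of IL-1, 0.199 for Ccnd2, the cyclin D2 gene, and 0.231 for Efcab3. Il1r2 had 1136 and 1101 reads in the TL1A libraries, against 57 and 52 reads in the medium libraries. Efcab3 had 136 and 163 reads with TL1A, against 1 and 1 in medium, so its distance depends on the 0.5 CPM added. With 2 libraries a group, this distance mostly picks genes with a fold of similar size.

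The labelled cell type was checked against marker genes. Il23r, the gene of the sorting reporter, had 7132 and 7329 reads with TL1A, against 12643 and 13292 reads in medium. Kit had 1 read in all, over 2 transcript rows. Reads shared by the rows of a gene are ambiguous and uncounted, so this value does not show that Kit was absent. The same limit holds for the markers listed at 0 over several rows, which are Clec9a, Itgam, Ms4a2, Cd8a, Eomes, Klra8, S100a9 and Csf3r. The summed level of 8 dendritic cell markers, cells known for Ccl17 and Ccl22, was 97.8 and 107 CPM with TL1A, against 279 and 175 CPM in medium, and Clec9a was at 0. Of its 5 tested genes, 1 rose and 2 fell, beside 20.6% called higher and 21.7% called lower among all tested genes. Zbtb46 rose (43.6 and 43.4 CPM with TL1A, against 5.97 and 7.94 CPM in medium), and Xcr1 and Batf3 fell. Most of the medium level was Xcr1, at 32.3 and 36.2 CPM with TL1A, against 211 and 117 CPM in medium. Without Xcr1 the mean sum was not lower with TL1A. Macrophage and monocyte markers summed to 43.6 and 52.2 CPM with TL1A, against 88.8 and 102 CPM in medium (8 genes, Itgam at 0; of 6 tested, 1 rose and 2 fell), mast cell and basophil markers to 0.186 and 0 CPM with TL1A, against 16.9 and 23.5 CPM in medium (5 genes, all reads from Cpa3), and T cell markers to 105 and 122 CPM with TL1A, against 141 and 125 CPM in medium (7 genes, Cd8a at 0; of 4 tested, 0 rose and 1 fell). Lat made up 99.9 and 116 CPM of the T cell sum with TL1A, against 138 and 116 CPM in medium. NK cell and ILC1 markers, cells known for Ccl3, Ccl4, Ccl5 and Xcl1, summed to 16.6 and 9.48 CPM with TL1A, against 13.6 and 9.66 CPM in medium (7 genes, Eomes and Klra8 at 0). Of 4 tested, 0 rose and 2 fell, Gzma (log2 fold change -2.32) and Klrk1 (-2.56), while Prf1 at 2.03 and Tbx21 at 1.27 did not pass (adjusted p = 0.0512 and 0.0708). B cell markers summed to 114 and 97.8 CPM with TL1A, against 36.5 and 47.8 CPM in medium, with Ms4a1 and Pax5 at 0. ILC2 markers summed to 304 and 279 CPM with TL1A, against 217 and 233 CPM in medium. Of these 7 genes, all tested, Klrg1 rose (138 and 131 CPM with TL1A, against 27.4 and 27.9 CPM in medium) and 2 fell, Il1rl1 (log2 fold change -2.37) and Il17rb (-1.51). Epithelial markers summed to 2.23 and 1.38 CPM with TL1A, against 9.48 and 4.04 CPM in medium (4 genes; of 2 tested, 0 rose and 1 fell), granulocyte markers had the 6 reads of S100a8 alone, and red cell markers were at 0. In bulk libraries, fewer cells of a type and less RNA per cell cannot be told apart, and the part of other cells in the chemokine values was not tested.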

How the data were processed

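RNA-seq was done on 4 libraries of sorted mouse ILC3s, 2 stimulated with TL1A and 2 in medium, grouped by their titles. Per the labels' protocols, the SMARTer Ultra Low Input kit served for cDNA synthesis; per the submitters' processing notes, CASAVA, STAR, HTSeq and build mm9 were used. Tool versions, strand setting and annotation: not given in the sources used here. As deposited, each value is a raw count of reads on one RefSeq transcript, from the authors' counting. The 5 HTSeq summary rows (69.9% to 71.3% of a column) were left out. Reads ambiguous between features made up 33.7% to 34.0% of those assigned or ambiguous, so genes with overlapping transcripts are undercounted.

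Accessions were matched to symbols through a RefSeq table of GRCm38.p6 (33154 of 33535 rows), used for names and neighbours, and rows were summed per gene. Genes were tested with edgeR 4.0.16 in R 4.3.3 (filterByExpr with a minimum count of 10, TMM, quasi-likelihood test, group as the only term, two-sided, Benjamini-Hochberg). CPM are per TMM-scaled library. Errors are SD, or for a log2 fold change SE (its absolute value over the root of F). The test was tested on simulated counts (9852 genes, 200 changed): it recovered 98% of those with a log2 change of 2. DESeq2 1.42.0, limma-voom (limma 3.58.1) and the alternatives in the closing section were also run. Intervals and floors cover counting error only, since reads carry no molecular identifiers.

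The members and lists were chosen with earlier results of these data known. Named genes were the members, up to 4 tested genes of each list by smallest p, the 3 nearest profiles and the marker genes; other list genes, among them the chromosome neighbours, were named after their values were seen. Some genes of the lists are not reported here.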

Additional observations from a re-analysis of the deposited data

How the results depend on the processing

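Each of the 5 tested chemokine ligand genes kept its direction and its call in all 55 alternative values computed (RLE and upper-quartile factors, no low-count filter, DESeq2, limma-voom, replicate block, each library left out, and each transcript row on its own). For Ccl1 and Xcl1 this says little, since they passed the filter through the TL1A libraries alone and so had to differ. The log2 fold change ranged from 6.50 to 6.84 for Ccl1, 4.44 to 4.82 for Ccl17, 2.76 to 2.86 for Ccl22 and 3.97 to 4.26 for Ccl5. That of Xcl1 was 8.81 with limma-voom. The count of ligand members called higher was 5 throughout, and that called lower (0 with edgeR, with 0 also at an unadjusted p under 0.05 and 0 by DESeq2) was 2 with no low-count filter and 0 to 2 when single libraries were left out, the 2 being Ccl3 and Ccl4. With single libraries left out, the log2 fold change of Ccl9 ranged from -0.090 (without medium replicate 1) to 3.02 (without medium replicate 2) and that of Ccl6 from -0.17 to 0.52, against 0.74 and 0.12 with all libraries; the cause was not tested. The number of other ligand genes called was 1 to 2 over single libraries left out. The count over all genes was 4168, 3250 to 3778 without single libraries and 3669 with DESeq2. With the replicate number as a block, 3542 genes were called; same-numbered libraries did not deviate together (r = -0.105 across genes), so the number does not show a pairing, and it changed no member's call. With crossed numbers, an alternative chosen after seeing the data, 4734 genes were called. Depth limits Ccl1, Ccl3, Ccl4 and Xcl1 in medium, where most libraries held 10 reads or fewer.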

Other observations

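Reads of Ccl3 and Ccl4 lay almost only in medium replicate 2. Among the 24343 genes of the table, 2 had at least 40 reads in medium replicate 2 and at most 5 reads in each other library, and these were Ccl3 and Ccl4. The same limits, chosen after the values of these genes were seen, found 1 gene for medium replicate 1, Itga2, and 0 genes for either TL1A library. Reads of Ccl3 and Ccl4 in medium replicate 2 stood at 0.588 reads of Ccl3 per read of Ccl4. Ccl7, which encodes another monocyte attractant, had 16 reads in medium replicate 2 and 0 in medium replicate 1, against 9 and 7 reads in the TL1A libraries.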
